A study of Mus musculus with 8 samples.

Results

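The departure of transcript levels from additive effects of 2 drugs was taken from a 2-by-2 design of 8 Illumina bead arrays, each hybridised with 1 sample. The cells were λ820, a lymphoma line from mouse whose growth is driven by Myc, cultured in RPMI medium with fetal bovine serum. Treatment lasted 24 h. The control group received DMSO, the solvent, at a dilution of 1 in 1000. The RVX2135 group received 10 µM of that drug, the VE-821 group 10 µM of the other, and the group here called the combination received 10 µM of each. There were 2 arrays in each group (n = 2 throughout). Nothing in the labels states that replicates were independent cultures, and the p-values then measure only the spread between these arrays, which may be technical. The study is of 1 cell line with 1 dose of each drug and 1 time point, and the number of arrays limits the precision.

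RVX2135 inhibits the BET bromodomain proteins, such as Brd2, which bind acetylated histones and help RNA polymerase II to leave promoters. VE-821 inhibits ATR, which is activated at stalled forks of replication and delays mitosis through the kinase Chek1. The design addresses how the response to one inhibitor changes in the presence of the other. Where each drug multiplies a transcript by the same factor with and without the other, the effects add on the log2 scale. The additive prediction for the combination is then the RVX2135 level plus the VE-821 level minus the DMSO level, and the departure is the observed level minus this prediction. A departure above 0 may be a rise larger than the sum or a fall smaller than the sum, so each gene is described here with its levels on all arrays.

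The members were the probes with 1 gene symbol and a detection p-value under 0.05 on both arrays of all 4 groups, which were 8871 of the 25697 probes and stood for 6460 genes. The highest detection p-value among them was 0.0489, and that of the nearest named probe outside was 0.0501. Levels are background-corrected, quantile-normalized log2 intensities, and a gene stands with its brightest member probe. Departures were tested with limma's two-sided moderated test on 11761 probes, those detected on both arrays of at least 1 group, and called at a Benjamini-Hochberg adjusted p under 0.05 over all of them.

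Between 11012 and 11478 probes were detected per array, and replicate arrays correlated at 0.9941 to 0.9957. The median standard error (SE) of a departure was 0.167, against 0.118 for a difference between 2 groups. Of 7 B lineage markers with a probe, Cd22, Cd79a, Cd79b and Ebf1 were detected on all 8 arrays, and Ms4a1 and Pax5 on none. None of 7 defining myeloid and 3 defining erythroid or platelet markers was detected on any array, while of the longer lists 3 of 18 and 4 of 11 genes with a probe were. Of the 8 defining T and NK cell markers 4 were detected on at least 1 array and none on all arrays. For stroma and endothelium 1 of 5 defining markers was detected on any array, and of the longer list 5 of 14 genes, with Fbln1 and Vim on all 8.

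Most members did not depart from additivity by the test, and those that did went both ways. Of the 8871 probes, 1059 were called higher than additive (11.9%) and 1258 lower (14.2%), beside 12.1% and 13.3% of all probes tested. Without DMSO replicate 1, 680 were called higher and 859 lower. The balance between the directions turned under median scaling in place of quantile normalization, with 1088 higher and 999 lower. Counted by gene, 790 of 6460 were higher and 1001 lower, or 12.2% and 15.5%, and these shares are the background for the gene lists below. By at least 2-fold, 127 genes were called higher and 229 lower. The median departure over genes was 0 (5% to 95% range, -0.87 to 0.75). For 2336 genes (36.2%) the 95% interval of the departure lay within 1.5-fold either way. The remaining uncalled genes are not shown to be additive.

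**Figure D1:**
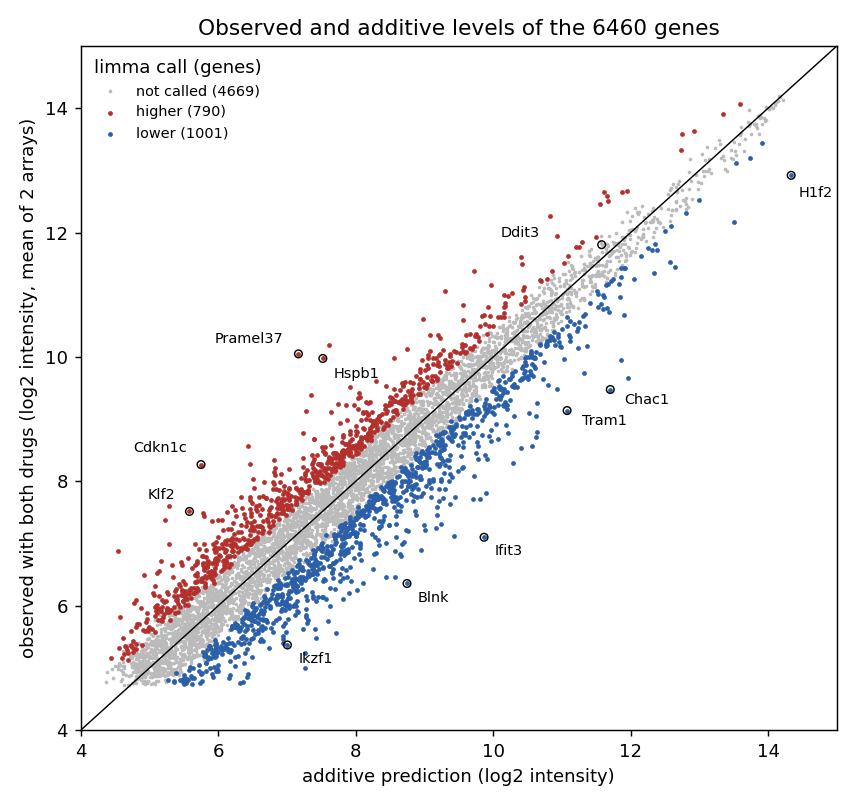
Mean log2 intensity of the 2 combination arrays (vertical axis) against the additive prediction (horizontal axis) for the 6460 genes. The line marks equality. Red points (790) were called higher than the prediction, blue points (1001) lower and grey points (4669) were not called, and named genes are circled.

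Among the 790 genes called higher, both combination arrays lay above all 6 other arrays for 605, below all of them for 4, and in neither place for 181. Among the 1001 called lower, they lay below all 6 for 714, above for 10 and in neither place for 277. Over all probes tested, both combination arrays lay above the other 6 for 24.8% and below for 24.5%. Against DMSO, the combination was called above for 553 of the genes called higher, called below for 70 and not called for 167. The corresponding counts for the genes called lower were 112 above, 673 below and 216 not called. Neither single drug was called against DMSO for 406 of the 790 and 392 of the 1001 genes, and the share over all member genes is not given here. Of the 1052 genes with at least 2-fold between the combination and DMSO, 599 were called either way (56.9%). For 181 (17.2%) the interval lay within 1.5-fold of additivity. Over all member genes, 12.2% were called higher and 15.5% lower. The selection and the departure share the combination and DMSO arrays, so a higher share of calls is partly built in.

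**Figure D2:**
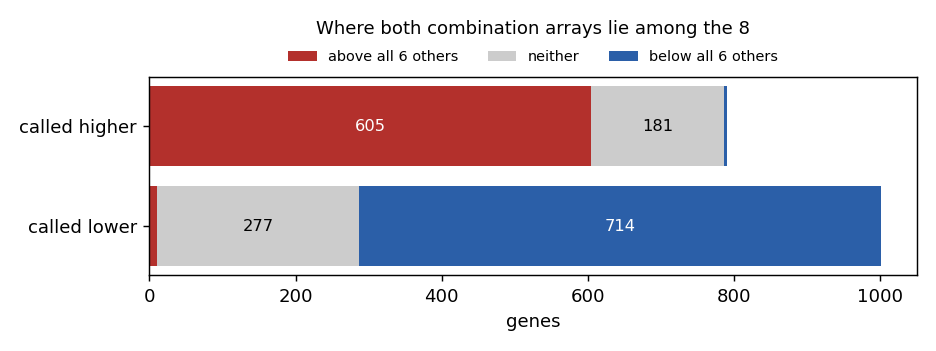
Number of genes called higher (790) or lower (1001) than additive, split by where their 2 combination arrays lay among the 8 arrays. Red is above all 6 others, blue below all 6 others and grey neither. The unlabelled ends hold 4 genes (called higher, below) and 10 genes (called lower, above).

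Heat shock genes, which encode chaperones that refold damaged proteins, tended to stand above the additive prediction with the combination. Of 22 measured members, 10 were called higher and 1 lower, with a median departure of 0.33 beside 0 over all genes. The median difference from DMSO over the list was -0.12 with RVX2135, -0.01 with VE-821 and 0.25 with the combination. Hspb1, a small heat shock protein that holds unfolded proteins, carried the largest departure of the list. Heat shock factor binds repeats of the bases GAA and their inverted copies, and the promoter window of Hspb1 is shown because it holds 2 such inverted pairs. The RefSeq window of 300 bases (GRCm38.p6, chr5:135887669-135887968, plus strand, mostly upstream of the gene start) carries GAANNTTC, in capitals, starting 117 and 97 bases before the gene start.
Hspb1: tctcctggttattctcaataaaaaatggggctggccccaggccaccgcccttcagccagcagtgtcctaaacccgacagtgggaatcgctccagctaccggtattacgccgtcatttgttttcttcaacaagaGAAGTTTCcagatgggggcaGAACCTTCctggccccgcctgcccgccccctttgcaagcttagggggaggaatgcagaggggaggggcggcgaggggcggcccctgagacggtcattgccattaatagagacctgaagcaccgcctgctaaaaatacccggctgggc
GAANNTTC, a palindrome and so the same on both strands, occurs in 7.86% of the 32851 mouse promoter windows of this length. Counted by gene, it occurs in a window of 9.04% of 27025 genes and of 8 of the 20 list members with a window.

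Hspb1 stood at 5.61 and 5.80 with DMSO, 6.81 and 6.91 with RVX2135, 6.70 and 6.05 with VE-821, and 10.16 and 9.79 with the combination. Both combination arrays were above the other 6 and above the prediction of 7.52. The departure was 2.45 (SE 0.27, adjusted p = 0.000125), or 5.48-fold. Hsp90aa1, the inducible cytosolic Hsp90, stood at 8.79 and 8.47 with DMSO and 8.30 to 8.36 on the 4 single-drug arrays. With the combination it stood at 9.26 and 9.59, the highest of the 8, and its departure was 1.38 (SE 0.19, adjusted p = 0.000594). The nucleotide exchange factor Hsph1 departed by 1.76, the co-chaperone Dnajb1 by 1.18, the co-chaperone Bag3 by 0.97 and the Hsp70 relative Hspa4 by 0.91, all called higher. Dnaja2, another Hsp40 co-chaperone, was the member called lower at -1.53, though its other member probe stood at -0.14 (adjusted p = 0.645). None of the 8 genes of the TRiC chaperonin, which folds actin and tubulin, was called either way, and their median was 0.08.

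Among genes of folding in the endoplasmic reticulum (ER), calls went both ways. Of 35 members 8 were called higher (22.9%) and 5 lower (14.3%), beside 12.2% and 15.5% over all member genes. The list median was 0.09. Hspa5, the ER chaperone BiP, stood at 7.19 and 7.22 with DMSO, 7.49 and 7.69 with RVX2135, 7.54 and 7.66 with VE-821, and 9.08 and 9.38 with the combination. Its combination arrays were above all others, with a departure of 1.25 (SE 0.18, adjusted p = 0.000628). The stress-inducible ER proteins Creld2 and Manf departed by 0.90 and 0.58, and the lectin chaperone Calr by 0.80. Tram1, which helps proteins enter the ER, went the other way at -1.94. It stood at 11.42 and 11.39 with DMSO and 10.98 to 11.58 on the single-drug arrays, against 9.02 and 9.26 with the combination. Of its other probes, 1 gave -1.96 and 1 gave -0.39, the latter not called (adjusted p = 0.0873). The translocon-associated genes Ssr4 (-0.59) and Ssr2 (-0.54) and the ER stress factor Xbp1 (-0.53) were also called lower.

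Histone genes supply the proteins that package DNA, and the combination exceeded the sum of the single effects for many of them. Of 48 members 20 were called higher than additive, 4 lower and 24 not, with a median departure of 0.28. The median difference from DMSO was 1.3 with RVX2135, 0.99 with VE-821 and 3.09 with the combination, while the median sum of the single effects was 2.37. H2bc3 stood at 5.22 and 5.15 with DMSO, 6.01 and 6.23 with RVX2135, 6.80 and 6.80 with VE-821, and 9.21 and 9.27 with the combination. Its combination arrays stood above the prediction of 7.74, a departure of 1.5 (SE 0.16, adjusted p = 9.39e-05). H2ac4 (1.86), the histone H4 gene H4c2 (1.62), H3c8 (1.29) and the linker histone H1f5 (1.27) were called higher too. All 11 histone H4 genes among the members were called higher, from H4c6 at 0.59 to H4c2 at 1.62. Probes of such near-identical genes may read each other's transcripts, so these are not independent measurements and the value of any single histone gene is uncertain.

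In 4 histone genes the combination fell short of the sum. The linker histone H1f2 stood at 9.55 and 9.90 with DMSO, 12.24 and 12.11 with RVX2135, 11.86 and 11.92 with VE-821, and 12.98 and 12.86 with the combination. The combination arrays were the highest, but the prediction of 14.33 lay above the highest level of any probe on the combination arrays, 14.23, and the departure was -1.41 (SE 0.18, adjusted p = 0.000321). H2bc4 (-1.34), H1f10 (-0.91) and H2bc18 (-1.57) were the others called lower. H2bc18 has a further member probe, which was called the other way at 1.27 (adjusted p = 0.000628). On the linear scale the sign turned for H1f2 and H2bc4. Another 4 histone H2B genes, H2bc14, H2bc9, H2bc11 and H2bc7, were among the largest additive changes on the log2 scale. H2bc14 stood at 7.38 and 7.67 with DMSO, 9.07 and 9.24 with RVX2135, 9.69 and 10.11 with VE-821, and 11.49 and 11.46 with the combination, against a prediction of 11.53. Its departure was -0.05 (95% interval, -0.51 to 0.41), and those of the other 3 lay between -0.16 and -0.06.

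**Figure D3:**
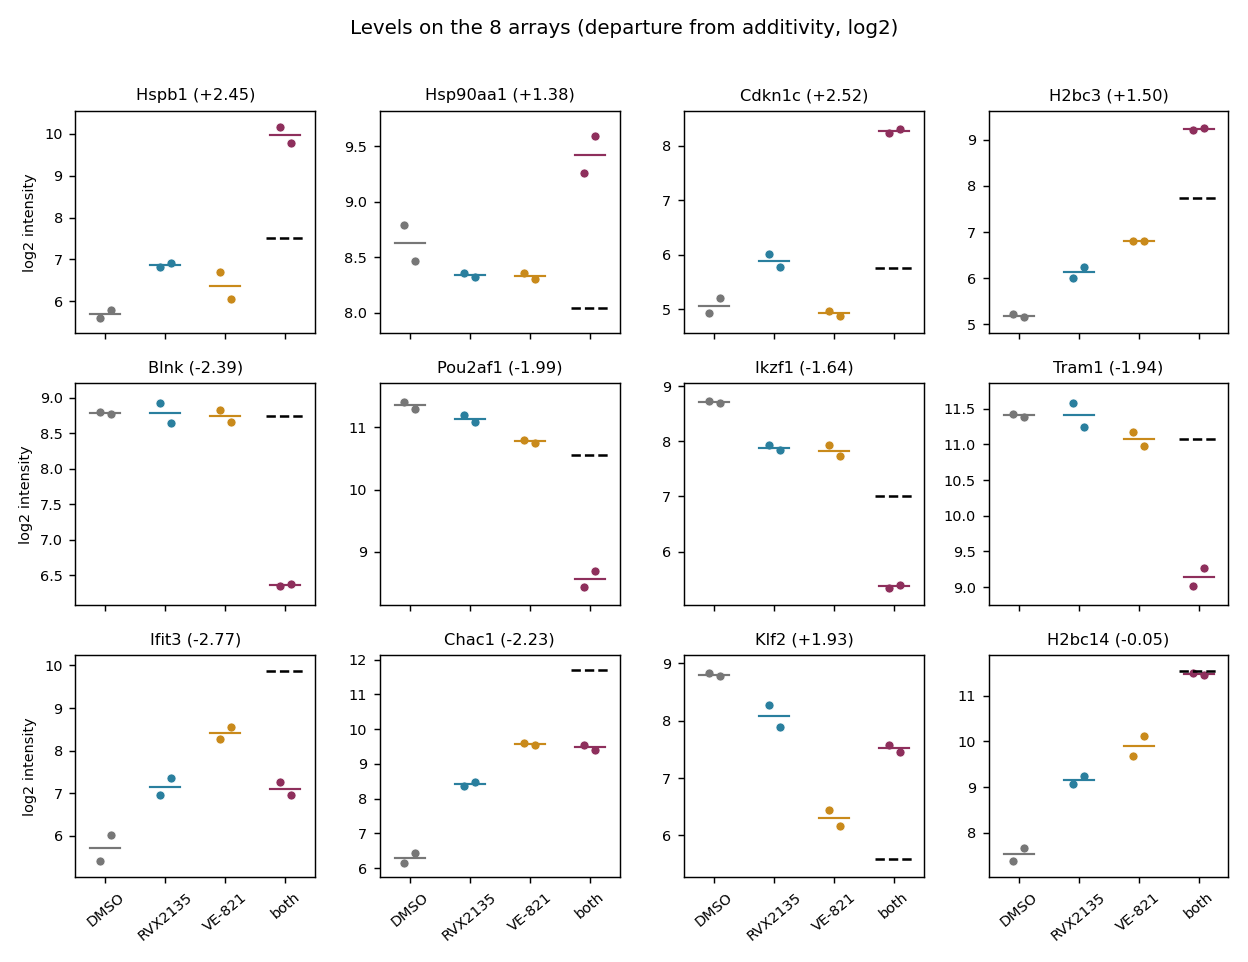
Log2 intensity of 12 genes on each array (points, 2 per group) with the group mean (short line) and the additive prediction (dashed line) at the position of the combination, labelled both. The number beside each name is the departure, from 2.52 for Cdkn1c to -2.77 for Ifit3. The vertical axes differ between panels.

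Genes with large departures above 0 tended to be dim with DMSO. The 127 genes at least 2-fold higher had a median DMSO level of 6.41, beside 7.71 over all genes, and 116 of them lay above all 6 other arrays. Pramel37, a gene of the PRAME-like family whose near-identical members may share its probe, stood at 5.06 and 4.83 with DMSO, 5.47 and 4.95 with RVX2135, 6.59 and 7.22 with VE-821, and 9.97 and 10.13 with the combination. Its departure of 2.88 (SE 0.29, adjusted p = 7.69e-05) was the largest of all genes. Cdkn1c, which encodes the CDK inhibitor p57, stood at 4.94 and 5.20, then 6.01 and 5.78 with RVX2135, 4.97 and 4.88 with VE-821, and 8.23 and 8.31 with the combination. RVX2135 raised it by 0.82, VE-821 left it at -0.14 (adjusted p = 0.457), and the departure was 2.52 (SE 0.18, adjusted p = 1.09e-05). Among other CDK inhibitor genes, Cdkn2d (0.74) and Cdkn1a, which encodes p21 (0.60, SE 0.17, adjusted p = 0.0212), were called higher. Cdkn1b (-0.38), Cdkn2b (-0.34), Cdkn2c (-0.19) and Cdkn2a (-0.10) were not called. Of the 17 genes in the list of senescence and CDK inhibitor genes that holds them, 3 were called higher and 2 lower, with a median of -0.07.

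Some genes stood level on the 6 other arrays and high with the combination. Lgals3, which encodes the sugar-binding protein galectin-3, stood between 5.05 and 5.43 on the 6 other arrays and at 7.69 and 7.51 with the combination. Arnt, the partner of the hypoxia-inducible factors, stood between 5.89 and 6.30 and then at 8.69 and 8.44, and its other member probe departed by 1.96. The departures were 2.31 (SE 0.17, adjusted p = 1.28e-05) and 2.13 (SE 0.19, adjusted p = 2.92e-05). Across the genes called higher, the other 6 arrays spanned less than 0.5 in 396 of 790, and across those called lower in 372 of 1001. No share over all member genes stands beside these counts, so they show neither an excess nor a lack of such genes. Zbtb2, a zinc finger repressor, departed by 2.58, the AP-1 factor Jund by 1.55 and the NF-kB subunit Rel by 1.16. Prf1, the pore-forming protein of killer lymphocytes, departed by 1.65 and was the only member from the T and NK cell list of 21 genes. Of the 18 of them with a probe, 8 were detected on at least 1 array, Prf1 was the 1 detected on all, and the defining markers Cd4, Cd8a, Cd8b1 and Ncr1 were detected on none. The summed intensity of the 18 genes was 464 to 542 with DMSO and 2240 to 2620 with the combination. Prf1 is among them, and its mean log2 level was 8.51 with DMSO and 11.38 with the combination. Its share of the sums was not worked out, so they do not show a rise of the list. For the 8 defining markers the sum was 40.5 to 47.9 with DMSO and 0.996 to 5.06 with the combination.

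On the log2 scale, B lineage genes went mostly the other way, below the sum of the single effects with the combination. Of 22 members none was called higher and 10 lower, with a median departure of -0.53. The median difference from DMSO was -0.56 with RVX2135, -0.47 with VE-821 and -2.2 with the combination, against a sum of -1.08. For 17 of the 22, both combination arrays lay below all others. In bulk RNA, fewer cells of a type and less RNA per cell cannot be told apart. The summed intensity of the 7 B lineage markers with a probe was 7530 to 8860 with DMSO, 2970 to 3380 with RVX2135, 2810 to 3360 with VE-821, and 554 to 626 with the combination.

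Blnk, the adaptor that links the B cell receptor to its downstream enzymes, stood between 8.64 and 8.93 on all 6 other arrays. With the combination it stood at 6.35 and 6.37, and its departure was -2.39 (SE 0.17, adjusted p = 1.24e-05), or 5.24-fold. Its other member probe gave -2.34. Pou2af1, a coactivator of immunoglobulin genes, stood at 11.41 and 11.29 with DMSO, 11.19 and 11.09 with RVX2135, 10.80 and 10.75 with VE-821, and 8.44 and 8.70 with the combination. The combination fell below the others and below the prediction of 10.56, by 1.99 (SE 0.16, adjusted p = 2.24e-05). Ikzf1, the lymphoid transcription factor Ikaros, fell by 0.83 with RVX2135 and by 0.88 with VE-821. It stood at 5.34 and 5.40 with the combination, against 8.74 and 8.70 with DMSO, a departure of -1.64 (SE 0.15, adjusted p = 4.92e-05). On the linear scale of intensity the departure of Ikzf1 was only -3.91, beside -350 for Blnk and -1010 for Pou2af1.

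For some other B lineage genes the sign depended on the scale. Cd79b, a signalling subunit of the B cell receptor, departed by -1.33 (SE 0.18), the inhibitory receptor Cd22 by -1.01 (SE 0.23), the kinase Btk by -1.34 and the intracellular Fc receptor-like protein Fcrla by -0.74. On the linear scale of intensity the sign of the departure turned above 0 for Cd79b, Cd22 and Fcrla. It also turned for Cd79a, Cd37 and Spib, which were not called, so the direction of the list is stated for the log2 scale only. Cd79a, the partner of Cd79b, was not called at -0.13 (adjusted p = 0.583), nor was the B cell factor Ebf1 at 0.11 (adjusted p = 0.732). Genes outside the list that also lay below all other arrays included Ccnd1, the G1 cyclin D1, at -1.73, the cytokine gene Il16 at -2.12, the mitochondrial acetate enzyme Acss1 at -2.01 and the sialyltransferase St3gal6 at -2.25. St3gal6 stood between 7.28 and 7.73 on the other 6 arrays and at 5.10 and 4.91 with the combination.

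**Figure D4:**
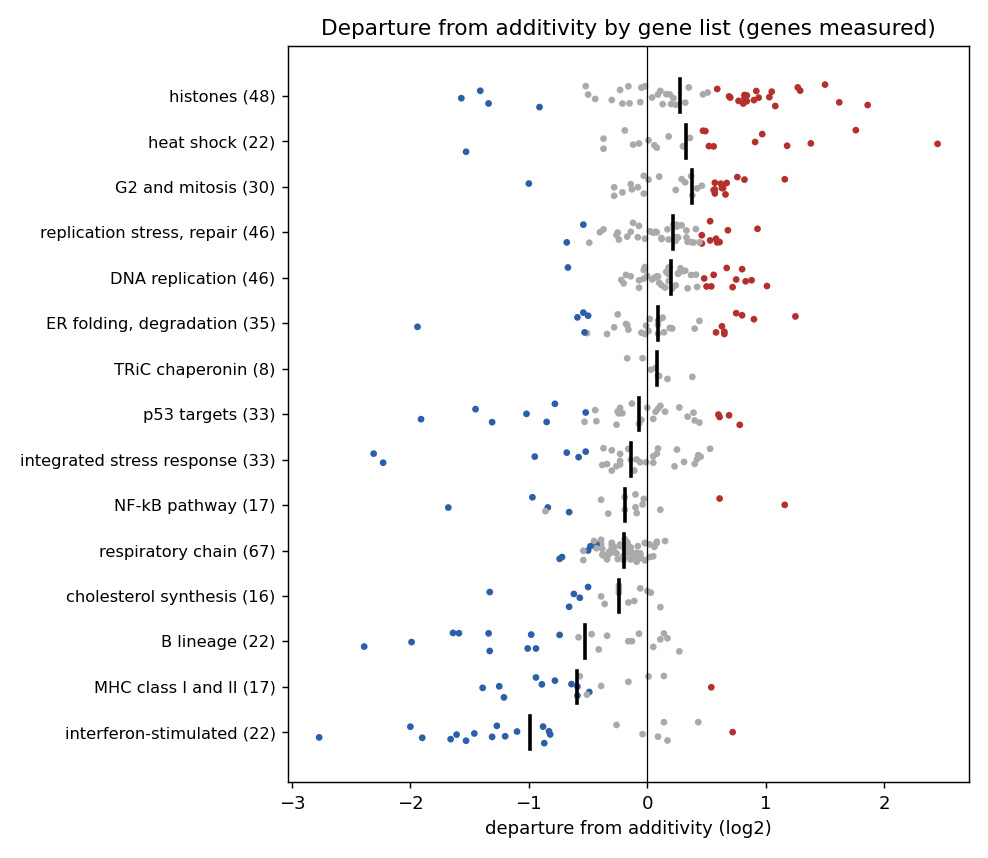
Departure from additivity of each measured gene (points) in 15 gene lists, on the log2 scale, with the list median (black bar) and the number of genes in parentheses. Red and blue points were called higher and lower, and grey ones were not called. Medians run from 0.38 for G2 and mitosis to -0.99 for interferon-stimulated genes.

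Interferon-stimulated genes, the antiviral effectors and sensors that type I interferon switches on, formed the list with the lowest median departure, -0.99. Of 22 members 15 were called lower and 1 higher. The median difference from DMSO was 0.09 with RVX2135, 0.85 with VE-821 and 0.03 with the combination. The promoter windows of Ifit3 and Isg15, both antiviral effectors, are shown because they hold several copies of the core of the interferon-stimulated response element, written here as GAAANNGAA. In the RefSeq windows (GRCm38.p6; Ifit3 at chr19:34583279-34583578, plus strand; Isg15 at chr4:156200769-156201068, minus strand) the copies are in capitals. They start 155, 121 and 102 bases before the start of Ifit3, all on the opposite strand, and 78, 72 and 66 bases before that of Isg15, where they overlap.
Ifit3: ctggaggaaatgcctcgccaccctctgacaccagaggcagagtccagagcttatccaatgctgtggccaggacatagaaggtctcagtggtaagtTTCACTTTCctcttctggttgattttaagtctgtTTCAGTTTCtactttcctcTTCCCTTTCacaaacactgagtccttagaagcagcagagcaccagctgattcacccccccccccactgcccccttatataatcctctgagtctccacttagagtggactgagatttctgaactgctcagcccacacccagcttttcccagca
Isg15: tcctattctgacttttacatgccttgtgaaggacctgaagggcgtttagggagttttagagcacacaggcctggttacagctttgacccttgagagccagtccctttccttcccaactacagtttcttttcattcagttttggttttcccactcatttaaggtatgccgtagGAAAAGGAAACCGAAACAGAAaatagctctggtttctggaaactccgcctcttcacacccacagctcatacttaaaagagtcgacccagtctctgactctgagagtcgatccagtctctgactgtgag
GAAANNGAA on either strand occurs in 8.56% of all windows. Counted by gene, it occurs in a window of 9.76% of genes and of 12 of the 20 list members with a window.

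Ifit3 stood at 5.40 and 6.01 with DMSO, 6.95 and 7.36 with RVX2135, 8.28 and 8.56 with VE-821, and 7.26 and 6.95 with the combination. The combination arrays overlapped the RVX2135 arrays and lay below the VE-821 arrays and the prediction of 9.87. The departure of -2.77 (SE 0.29, adjusted p = 9.3e-05) was the lowest of all genes. RVX2135 raised Ifit3 by 1.45 over DMSO, and lowered it by 1.31 where VE-821 was present. Isg15 stood at 5.97 and 6.72, then 7.55 and 7.52 with RVX2135, 9.52 and 9.34 with VE-821, and 8.89 and 8.55 with the combination. It departed by -1.90 (SE 0.28, adjusted p = 0.000804). The antiviral enzyme gene Rsad2 departed by -2.0, the GTPase gene Gbp3 by -1.61 and Irf9, a subunit of the interferon-activated factor, by -1.66. Irf9 stood at 6.58 and 6.6 with the combination, below all other arrays. Cxcl10, a chemokine gene, stood at 9.23 and 9.18 with VE-821 and 9.47 and 8.89 with the combination, and was not called (-0.04, SE 0.33, adjusted p = 0.943). Irgm1, an immunity-related GTPase gene, was the member called higher, at 0.72.

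Genes of antigen presentation by major histocompatibility complex (MHC) molecules also stood mostly below the prediction. Of 17 members 10 were called lower and 1 higher, with a median of -0.59. The class I gene H2-T23 stood at 7.67 and 7.83 with DMSO, 8.54 and 8.64 with RVX2135, 8.88 and 9.01 with VE-821, and 8.52 and 8.62 with the combination. Its departure was -1.21 (SE 0.16, adjusted p = 0.000356). The peptide transporter Tap2 (-1.39) and the immunoproteasome subunit Psmb10 (-1.25) lay below all other arrays with the combination. Cd74, the invariant chain of class II, was called higher at 0.54, and its sign turned on the linear scale. Of 17 NF-kB pathway genes 2 were called higher and 4 lower. The chemokine gene Ccl5 departed by -1.68, while the subunits Relb and Nfkb2, which stood at 2.86 and 2.29 above DMSO with VE-821 and 2.83 and 2.24 with the combination, were not called (-0.19 each).

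The integrated stress response, in which the factor Atf4 answers a block of translation initiation, was mostly not called. Of 33 members none was called higher and 6 lower (18.2%), with a median of -0.14. The share called lower was near the 15.5% over all member genes. Chac1, an Atf4 target that breaks down glutathione, is shown with its promoter because its window holds the motif TGATGNAA, of the type bound by dimers of C/EBP and ATF factors. The RefSeq window (GRCm38.p6, chr2:119350992-119351291, plus strand) carries 1 copy in capitals, on the opposite strand, starting 193 bases before the gene start.
Chac1: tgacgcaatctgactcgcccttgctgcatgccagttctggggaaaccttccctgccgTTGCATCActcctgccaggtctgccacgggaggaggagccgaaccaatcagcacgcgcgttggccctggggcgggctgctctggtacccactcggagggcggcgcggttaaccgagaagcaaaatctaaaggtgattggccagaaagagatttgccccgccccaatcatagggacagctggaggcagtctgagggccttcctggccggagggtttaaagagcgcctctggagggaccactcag
TGATGNAA on either strand occurs in 3.97% of all windows. Counted by gene, it occurs in a window of 4.51% of genes and of 10 of the 28 list members with a window.

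Chac1 stood at 6.16 and 6.43 with DMSO, 8.37 and 8.48 with RVX2135, 9.6 and 9.55 with VE-821, and 9.54 and 9.41 with the combination. The combination arrays lay just under the VE-821 arrays, and where VE-821 was present RVX2135 shifted Chac1 by -0.10 (adjusted p = 0.52), against 2.13 without it. The departure was -2.23 (SE 0.17, adjusted p = 1.43e-05). Ddit4, an inhibitor of mTORC1, stood at 6.50 and 6.57 with DMSO, 8.41 and 8.77 with RVX2135, 7.26 and 7.49 with VE-821, and 7.07 and 7.16 with the combination. Each drug raised it, yet the combination arrays lay below all 4 single-drug arrays, with a departure of -2.31 (SE 0.19, adjusted p = 2.24e-05). Cth, an enzyme of cysteine synthesis, departed by -0.95 and the Atf4-related factor Atf5 by -0.68. Ddit3, which encodes the stress factor CHOP, was raised by 2.35 with RVX2135, 3.34 with VE-821 and 5.92 with the combination, and was not called (0.23, SE 0.25, adjusted p = 0.547). Its other probe stood at 0.58 (adjusted p = 0.0691). Atf4 itself rose by 0.84, 1.59 and 2.20 and was not called (-0.23, 95% interval -0.60 to 0.14).

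Among targets of p53 and genes of the BCL2 family, calls went in both directions. Of the 33 p53 targets 4 were called higher and 7 lower (12.1% and 21.2%), with a median of -0.07. Of 23 genes of the BCL2 family and its partners 1 was called higher and 5 lower, with a median of -0.18. Bbc3, which encodes the pro-apoptotic protein PUMA, stood at 8.80 and 9.25 with DMSO, 10.45 and 10.61 with RVX2135, 10.37 and 10.35 with VE-821, and 10.01 and 9.89 with the combination. The combination lay above DMSO but below every single-drug array, and the departure was -1.91 (SE 0.20, adjusted p = 9.49e-05). Its other probes were called lower too, at -0.82 and -0.84. The p53 targets Trp53inp1 (-1.45) and Btg2 (-1.31) were raised by RVX2135 and stood near DMSO with the combination, at 0.15 (adjusted p = 0.37) and -0.21 (adjusted p = 0.182). Gadd45a, another p53 target, was an additive example, with 2.0, 0.86 and 2.96 over DMSO and a departure of 0.11 (95% interval, -0.37 to 0.58). Pmaip1, which encodes NOXA, was not a member, as its probes were not detected with DMSO or RVX2135.

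Hexim1, which holds the kinase P-TEFb inactive and is known to rise with BET inhibitors, stood at 6.62 and 6.65 with DMSO and 7.89 and 7.85 with RVX2135. With VE-821 it stood at 6.24 and 6.06, and with the combination at 6.21 and 6.04, level with VE-821 alone. The departure was -1.26 (SE 0.16, adjusted p = 0.000259). The MAX partner gene Mxd4 was alike, up by 1.38 with RVX2135 and at -0.29 with the combination (adjusted p = 0.165), a departure of -1.36. Brd2, a target of RVX2135, departed by 0.53 (SE 0.16, adjusted p = 0.0273), and its other probes by 0.79 and 0.93. The call of the brightest Brd2 probe was lost when any 1 of 5 of the 8 arrays was left out, with an adjusted p up to 0.106. Myc was not called (-0.18, adjusted p = 0.451), and nor was Chek1 (0.25, adjusted p = 0.296). The immediate early factor Egr1 rose by 2.44, 1.03 and 2.06 and departed by -1.42, with combination arrays below the RVX2135 arrays. Of 36 genes of lysosome and autophagy 2 were called higher and 7 lower (5.56% and 19.4%), with a median of -0.09. Those called lower included the lysosomal genes Psap (-1.22) and Glb1 (-0.90) and the autophagy gene Map1lc3b (-0.94).

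Genes of DNA replication and mitosis stood below DMSO in median with each drug, and above the additive prediction with both. Of 30 genes of G2 and mitosis 12 were called higher and 1 lower, with a median departure of 0.38. The median difference from DMSO was -0.37 with RVX2135, -0.46 with VE-821 and -0.59 with the combination, against a sum of -0.82. Kif23, a motor of the midzone in cell division, stood at 8.58 and 8.29 with DMSO, 7.57 and 7.36 with RVX2135, 7.55 and 7.58 with VE-821, and 7.63 and 7.87 with the combination. The 3 treated groups stood close together below DMSO, and the departure was 1.16 (SE 0.19, adjusted p = 0.00135). The kinase Cdk1 departed by 0.62 and the mitotic factor Foxm1 by 0.66. Cdc25b, the phosphatase that activates Cdk1, was the member called lower, at -1.0.

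Among 46 replication genes 11 were called higher and 1 lower, with a median of 0.20. Cdc6, which loads the replicative helicase, stood at 8.93 and 8.88 with DMSO, 8.04 and 7.76 with RVX2135, 8.58 and 8.54 with VE-821, and 8.47 and 8.42 with the combination. The combination lay above RVX2135 alone, and the departure was 0.88 (SE 0.16, adjusted p = 0.00281). The helicase subunits Mcm5 (0.67), Mcm2 (0.56) and Mcm4 (0.48), the histone chaperones Asf1b (1.01) and Chaf1a (0.83) and the factor E2f1 (0.80) were also called higher. Tk1, the thymidine kinase, was the exception at -0.67, a sign that turned on the linear scale. Of 46 genes of replication stress and repair 9 were called higher and 2 lower, with a median of 0.22. The nuclease gene Mus81 stood at 6.84 and 6.91 with the combination, above all other arrays (0.93), while the checkpoint mediator gene Clspn (0.53) lay below all others and still above its prediction.

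Vim, the intermediate filament gene of the stroma list, stood at 9.15 and 9.26 with DMSO, 8.61 and 8.64 with RVX2135, 7.49 and 7.44 with VE-821, and 7.92 and 7.80 with the combination. The combination lay between the single drugs, and the departure was 0.98 (SE 0.15, adjusted p = 0.000844). The summed intensity of the 14 stroma and endothelium genes with a probe was 791 to 886 with DMSO and 189 to 234 with the combination.

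Klf2, a factor of lymphocyte quiescence, had the largest departure above 0 among genes that stood below DMSO with the combination. It stood at 8.83 and 8.77 with DMSO, 8.27 and 7.89 with RVX2135, 6.44 and 6.16 with VE-821, and 7.58 and 7.45 with the combination. The combination lay between the single drugs, so RVX2135 lowered Klf2 by 0.71 against DMSO and raised it by 1.22 in the presence of VE-821. The departure was 1.93 (SE 0.20, adjusted p = 9.31e-05). Across all member genes, the RVX2135 effect was called in opposite directions without and with VE-821 in 142, and the VE-821 effect without and with RVX2135 in 90. Cox6a2, a muscle-type subunit of cytochrome oxidase, was another of them. It stood at 6.87 and 6.99 with DMSO, 7.45 and 7.44 with RVX2135, 11.41 and 11.48 with VE-821, and 9.66 and 9.66 with the combination, a departure of -2.30 (SE 0.14, adjusted p = 8.57e-06).

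**Figure D5:**
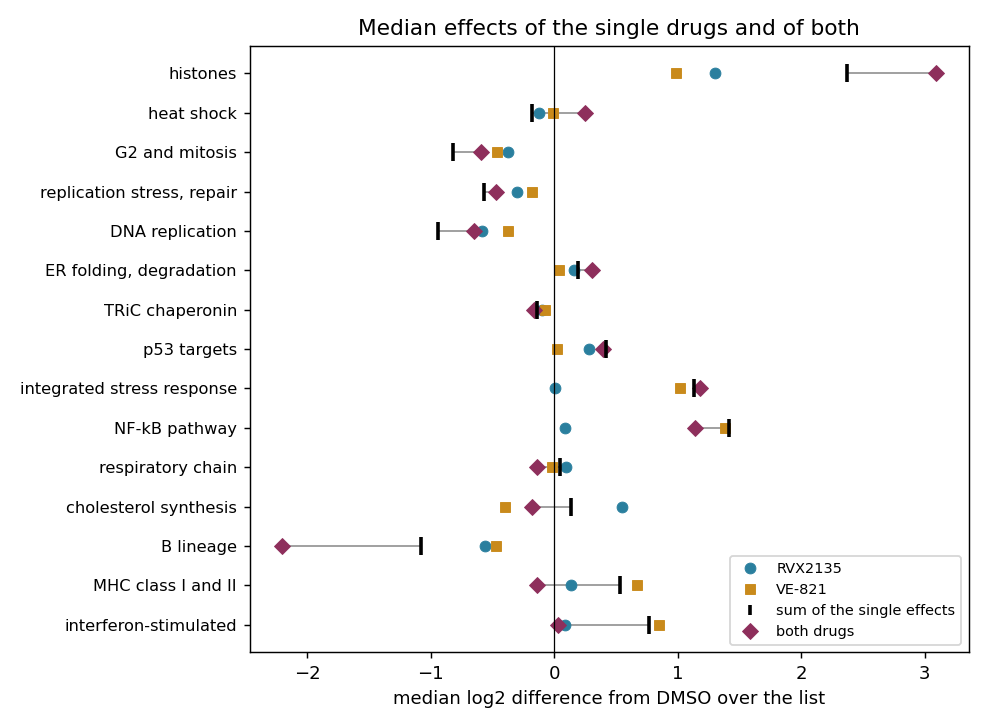
Median log2 difference from DMSO over the measured genes of 15 lists, for RVX2135 (circles), VE-821 (squares) and both drugs (diamonds), with the median sum of the single effects (black ticks). B lineage genes stood at -2.2 with both drugs against a sum of -1.08, and histones at 3.09 against 2.37. The gap between 2 such medians is not the median departure, which was -0.53 for B lineage genes and 0.28 for histones.

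In cholesterol synthesis the single drugs stood on opposite sides of DMSO. The median difference from DMSO over 16 genes was 0.55 with RVX2135, -0.40 with VE-821 and -0.18 with the combination, and 5 were called lower than additive and none higher. Hmgcs1, an early enzyme of the pathway, stood at 11.85 and 11.92 with DMSO, 13.11 and 12.96 with RVX2135, 11.25 and 11.22 with VE-821, and 11.70 and 11.74 with the combination. Its departure was -0.66 (SE 0.15, adjusted p = 0.00765). Stard4, a cholesterol carrier, stood at 8.65 and 8.63 with the combination, below all other arrays, and departed by -1.33. Of 67 respiratory chain genes 5 were called lower (7.46%) and none higher, with a median of -0.20. The counts for 48 cytosolic ribosomal protein genes were 5 lower (10.4%) and none higher, with a median of -0.08. Both shares of lower calls were under the 15.5% over all member genes, of which 12.2% were called higher. Most departures were nonetheless below 0, in 60 of the 67 respiratory chain genes and 39 of the 48 ribosomal protein genes.

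Probes of a gene did not always move together. Of 1746 genes with several member probes, 648 had at least 1 call. In 521 of these all probes lay on the same side of 0, in 196 all were called the same way, and in 11 probes were called in opposite directions. Bcl2l11, which encodes the pro-apoptotic protein BIM, had 2 probes called lower, at -1.11 and -1.09, and 1 called higher, at 0.55. The RNA-binding protein gene Hdlbp gave -0.62 and 1.02, and the transcription factor gene Atf2 gave -0.50, 1.45 and 1.48. For such genes the value of 1 probe does not stand for the gene.

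The choice of scale moved few signs among the called genes, but it turned the balance between the directions. On the linear scale of intensity, 1387 member probes were called higher than additive and 1161 lower, against 1059 and 1258 on the log2 scale. Genes not called on the log2 scale could lie far from additive on the linear scale. The linear departure, in units of intensity, was 1500 for H2bc14, 2730 for Ddit3, 675 for Atf4 and -8.77 for Myc. Of the 1791 genes called on the log2 scale, the sign turned for 25, of which 23 had been called lower. For 32 genes the additive prediction lay under 4.66, the lowest level of a detected probe on a combination array, and 9 of them were called higher. Trappc8, a subunit of a vesicle tethering complex, was 1 of these. Its prediction was 4.55, and it stood at 4.72 to 5.33 on the other 6 arrays and at 6.73 and 7.04 with the combination (departure 2.34, SE 0.18, adjusted p = 1.43e-05).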

How the data were processed

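The authors deposited probe intensities that were not normalized, background-subtracted (values reach -14.06) and on a linear scale, together with detection p-values. They also deposited normalized intensities, used here as an alternative. The submitters' processing notes name GenomeStudio, and the normalization method and the detection test are not given in the sources used here. Groups and replicate numbers came from the titles. Probes were named through the platform annotation, with symbols updated by Entrez identifier for 23962 of 23978.

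In R 4.3.3, limma 3.58.1 neqc used these p-values for background correction, with an offset of 16, quantile normalization and log2. The 8 arrays entered a single lmFit and eBayes model of 4 group means (4 residual and 7.45 prior degrees of freedom). The departure is the contrast combination minus RVX2135 minus VE-821 plus DMSO. The fit was tested on simulated data. A linear fit on background-corrected intensities gave the other scale.

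The text names from the 12 largest departures either way, up to 3 members of each list by adjusted p, fixed genes, 6 additive and 4 otherwise quiet genes. Other members of a list, the probes that disagree and the genes of the opposite call within a list were named after their values were seen. The members and lists were chosen with earlier results of these data known. Promoter windows came from RefSeq.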

Additional observations from a re-analysis of the deposited data

Results flagged for a closer look

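The contrast itself asks whether the effect of a drug differs with and without the other, and limma called this difference for 1059 member probes in the higher and 1258 in the lower direction. For 9 of the genes with the largest departures, a drug's effect was called in opposite directions without and with the other drug. RVX2135 lowered Trappc8 (departure 2.34), Tuft1 (2.15) and Klf2 (1.93) against DMSO and raised them where VE-821 was present. The reverse held for Ifit3 (-2.77), Cox6a2 (-2.30), Gal3st2 (-2.15), Adssl1 (-2.08) and Gpr176 (-2.05), which RVX2135 raised alone and lowered in the presence of VE-821. VE-821 raised Ddit4 (-2.31) alone and lowered it by 1.47 where RVX2135 was present.

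Outside the members, 548 probes without a gene symbol were detected on all 8 arrays, of which 75 were called higher and 75 lower than additive. Of the 23978 named probes, 131 were detected on both combination arrays and on none of the other 6. The reverse, detection on the other 6 and on neither combination array, held for 152. Cxcl2, a chemokine gene among the former, gave intensities of 92.9 and 66.6 with the combination and below 0 on the other 6 arrays. Slamf7, a receptor of lymphocytes and plasma cells among the latter, gave 220 and 191 with DMSO, 44.2 and 44.4 with RVX2135, 96.5 and 80.3 with VE-821, and 4.54 and 3.91 with the combination. Both genes were chosen after their values were seen. Matching counts for other pairs of arrays are not given here, so the 131 and 152 show neither an excess nor a lack.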

How the results depend on the processing

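Leaving out each array in turn gave 680 to 959 member probes called higher and 859 to 1150 called lower. The lowest counts came without DMSO replicate 1, and the array left alone in its group is then assumed to vary like the other groups. Every other alternative, which were the authors' normalized values, other background, offset and normalization settings, other sets of probes tested, a stricter detection threshold, another variance prior and the linear scale, gave 874 to 1387 higher and 999 to 1538 lower. A fit with 1 probe per gene called 848 higher and 1055 lower of 6452 genes. More calls were lower than higher under each of these settings except median scaling (52.1% of calls higher) and the linear scale (54.4%), against 45.7% as reported. With the replicate block the counts were 1106 and 1287. Deviations of same-numbered arrays correlated at -0.02 to 0.201 between groups, and with only 2 numbers this does not establish pairing. Of 106 called genes under the naming rule, 90 were called the same way in all 18 alternatives run for them, and none of the 121 genes under the rule reversed. The other 16, among them Brd2, Cdkn1a, Lig4, Mif, Vegfa, Nop10 and Ndufc1, lost the call in at least 1. The result combination arrays above the other 6 arrays held for 2282 to 2410 member probes under the other normalizations, and combination arrays below the other 6 arrays for 2086 to 2298. Median departures stayed on 1 side of 0 for the lists of heat shock (0.24 to 0.39), histones (0.24 to 0.44), G2 and mitosis (0.22 to 0.51), interferon-stimulated genes (-1.11 to -0.75) and B lineage genes (-0.79 to -0.29). For cytosolic ribosomal proteins the median ran from -0.10 to 0.03. The effect of the offset on the departures of dim genes was tested only through an offset of 50, which gave 1374 higher and 1508 lower.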

Other observations

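Immediate early and stress-linked genes outside the groups above did not depart in 1 direction. Of 17 immediate early genes 3 were called higher and 3 lower, with a median of -0.17. Nfil3, a leucine zipper repressor, departed by 1.02, and Zfp36l1, which promotes messenger RNA decay, by -0.88. Of 18 genes under the oxidative stress factor NRF2, 3 were called higher and 2 lower. The glutathione synthesis subunit Gclm (0.96) and the pentose phosphate enzyme Taldo1 (0.76) were higher, and the haem transporter Slc48a1 (-0.96) was lower.

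Of 48 splicing genes 7 were called higher and 5 lower (14.6% and 10.4%), with Srsf4 at 0.83 and its relative Srsf6 at -1.15. Of 69 mitochondrial ribosomal protein genes 2 were called higher and 9 lower, with Mrps6 at 0.82 and Mrpl50 at -0.92. Mrpl50 stood between 10.03 and 10.13 on the 6 other arrays and at 9.20 and 9.24 with the combination. Among 15 glycolytic genes, 3 were called lower and 1 higher, and Pdk1, which restrains pyruvate dehydrogenase, departed by -1.03.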
